A study of Mus musculus with 8 samples.

Results

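The ubiquitin-conjugating (E2) genes are described here, taken as all genes of the deposited count table whose symbol starts with Ube2 and a letter, without symbols that end in -ps, with at least 10 counts summed over the 8 libraries. Of 44 Ube2 symbols, 3 were left out as -ps and 8 for too few counts, 6 of them at 0, which left 33 members among 35494 gene symbols. The member nearest the minimum was Ube2srt with 13.0 counts, and the highest symbol under it was Ube2u with 4. Quadriceps RNA was sequenced from 8 wild-type (WT) male C57BL/6 mice, 1 library per mouse, entered into the study at 8 weeks of age. MC38 cells, a mouse colorectal cancer line, were injected under the skin of 4 mice (scMC38), and 4 control mice received the same volume of PBS. All muscle was taken after 28 days. The question is which muscle mRNAs differ in level when this tumour is present, which the series title links to mild cachexia, the wasting that accompanies cancer. The samples are whole muscle, so fewer cells of a type and less RNA per cell cannot be told apart.

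Ubiquitin is attached to proteins in a relay. An E1 enzyme activates it, an E2 enzyme takes it onto a cysteine of its active site, and an E3 ligase brings the loaded E2 to the protein to be marked. E2s decide much of the outcome, because some build chains that send proteins to the proteasome, some build chains used in signalling, and some carry other small modifiers such as SUMO, NEDD8 or ISG15. In wasting muscle the ligases atrogin-1 (Fbxo32) and MuRF1 (Trim63) are the best known induced genes of this system. Ube2b mRNA has often been found raised in wasting muscle, and Ube2e1, Ube2g1, Ube2j1 and Ube2l3 encode E2s reported to bind MuRF1.

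Library totals ran from 50.5 M to 62.1 M estimated counts. The tissue label was borne out by its markers: all 9 muscle fibre genes were tested, and their summed level lay between 99971 and 140953 CPM (counts per 1000000, library sizes scaled by TMM) in the 8 libraries. The libraries scMC38 1 and 3 stood apart. Their summed marrow progenitor markers (Mpo, Elane, Prtn3, Ctsg, Ms4a3) were at 45.5 and 397 CPM against 0.0335 to 0.355 CPM in the other 6 libraries, and their bone markers at 65.3 and 483 CPM against 1.86 to 17.5 CPM. Epithelial markers, which a tumour cell admixture could bring, were at or under 1.37 CPM in all libraries. Results that rest on scMC38 1 and 3 are therefore given with and without them. Controls 1 and 2 had the largest share of mitochondrially encoded RNA, at 24.3% and 29.7% of counts against 14.4% to 18.9% elsewhere.

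Ube2b was the most abundant E2 mRNA per length. Levels of different genes were compared as CPM per kilobase of the longest protein-coding transcript in GENCODE M21, an approximation since the transcripts used in the table are not known. On that scale Ube2b stood at 238 ± 14.8 in controls and 252 ± 31 in scMC38 (SD, n = 4), which was 22.9% and 24.4% of the sum over the 32 tested members. Ube2d1 followed at 152 ± 28.4 and 139 ± 20.3, then Ube2d3 at 86.3 ± 0.419 and 84.9 ± 7.92. With the middle-length transcript Ube2b remained first in both groups, at 14.4% of the sum in controls and 15.1% in scMC38. Ube2d3 was then next, at 219 and 215 CPM per kilobase. Ube2d3 and Ube2g2 moved ahead of Ube2d1, so the share of Ube2b and the order below the first place depended on the length chosen. At the other end, Ube2ql1 was last and Ube2c second to last in controls (0.367 ± 0.206 and 0.526 ± 0.149 CPM per kilobase). For these genes the middle length equals the longest, so the change of length could not alter these places. Summed over the 33 members without length adjustment, E2 mRNA was 2467 ± 36.4 CPM in controls and 2457 ± 184 CPM in scMC38.

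**Figure D1:**
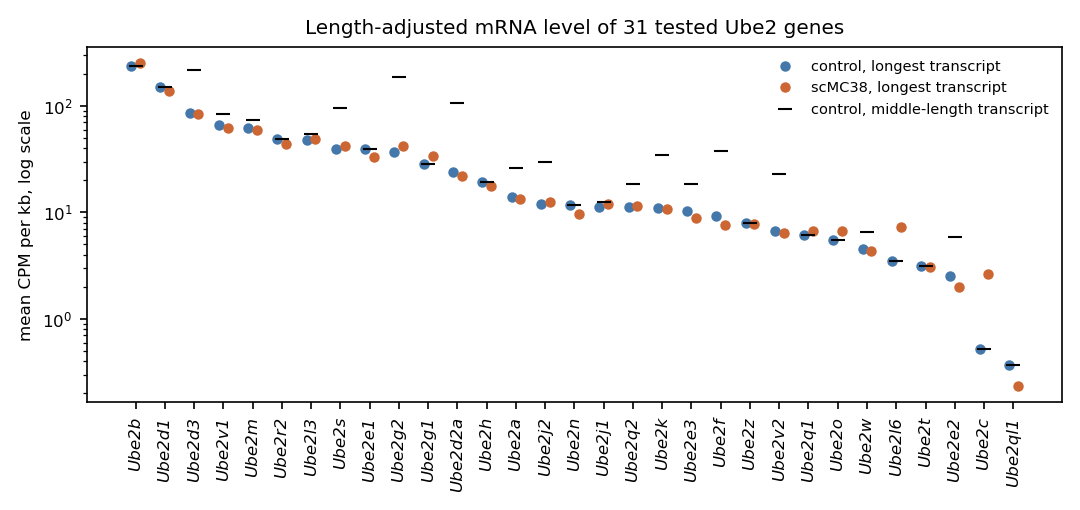
Mean level per kilobase of 31 of the 32 tested Ube2 genes on a log axis in control (blue) and scMC38 (orange) libraries, using the longest coding transcript, with black dashes for controls under the middle-length transcript. Ube2b leads in both groups at 238 and 252 CPM per kilobase, and most blue and orange points lie side by side.

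No E2 gene passed the test. edgeR's quasi-likelihood test called 0 of 32 tested members at an adjusted p under 0.05, where 1.2% of all 14112 genes tested were called (0.737% higher, 0.468% lower). At an unadjusted p under 0.05 it placed 4 members higher and 4 lower, 25% of members, against a background of 21% of all genes (11.2% higher, 9.77% lower). The groups did not overlap in 3 members, against 13.2% of all genes: Ube2l6 on the higher side (6.77% of all genes), Ube2n and Ube2e2 on the lower (6.47%). The median log2 fold change was -0.04 for the members and 0.00087 for all genes, and the median size regardless of direction was 0.10 for members and 0.19 for all genes. All genes include scarce ones, and no background matched to the members for level was computed.

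With TMM scaling taken as given, most of these differences were bounded closely. For 23 of the 32 the log2 fold change was under 0.2 in size, and for 27 the whole 95% interval lay within 1.5-fold in either direction. At least 50% of all tested genes were also under 0.2 in size (median 0.19), and the share of all genes was not computed for the interval count. The intervals of Ube2c, Ube2l6, Ube2e2, Ube2t and Ube2ql1 reached beyond 1.5-fold. Log2 fold changes were positive for 13 members and negative for 19 with TMM, where 50.2% of all genes were positive, but positive for 23 when libraries were scaled by total counts alone, which moved the median of all genes to 0.11. Relative to the median of all genes, 13 members were above it under both scalings. DESeq2, run as an alternative, called Ube2n, Ube2l6 and Ube2c, where it called 10.1% of all genes.

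**Figure D2:**
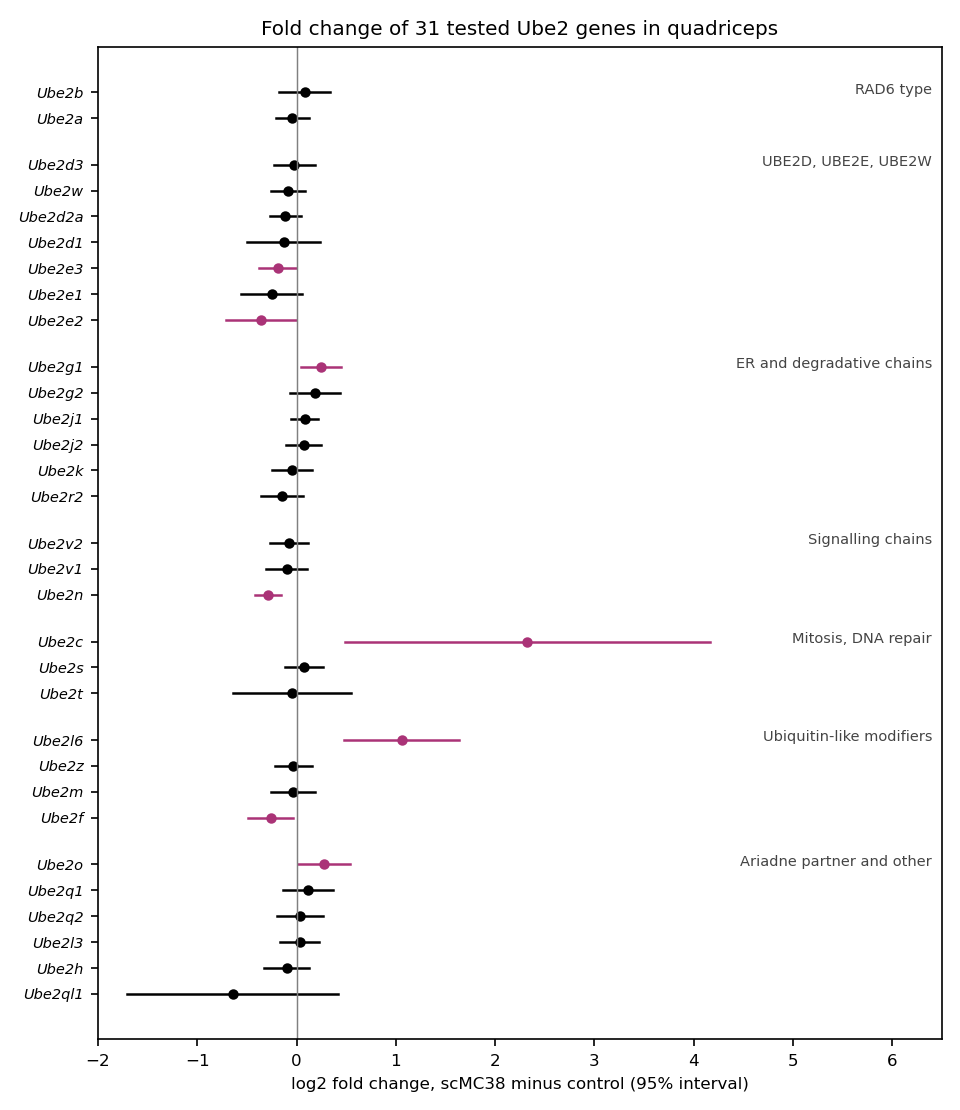
Log2 fold change (scMC38 minus control) of 31 of the 32 tested Ube2 genes with their 95% intervals, grouped by role, with genes at an unadjusted p under 0.05 in purple. Nearly all points lie close to 0, with Ube2c (2.33) and Ube2l6 (1.06) far to the right.

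The RAD6-type E2s Ube2b and Ube2a, which serve the N-end rule ligases and mark histones, showed no detected difference. Ube2b was at 466, 418, 420 and 405 CPM in controls 1 to 4 and at 426, 486, 387 and 509 CPM in scMC38 1 to 4. The tumour group held both the highest and the lowest library, so the groups overlapped throughout. The log2 fold change was 0.08 (SE 0.11, adjusted p = 0.706), with an interval from 11.4% lower to 26.5% higher. Without scMC38 1 and 3 it was 0.24 (adjusted p = 0.316). Ube2a differed by -0.04 (adjusted p = 0.757), with an interval from 13.5% lower to 8.77% higher.

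The Ube2d and Ube2e genes encode E2s that work with many ligases, MuRF1 among them in test-tube assays, and Ube2w starts chains on protein amino termini. All 7 tested genes of this group had a negative log2 fold change with TMM (median -0.13), 5 of them also with total counts alone, where Ube2d3 and Ube2w turned positive. Ube2d3 was also positive with TMM when scMC38 1 and 3 were left out together (0.11) or singly, while the other 6 stayed negative in those fits. None passed the test. Ube2e2 was at 3.53, 3.38, 4.10 and 4.57 CPM in controls and 3.30, 3.06, 3.21 and 2.54 CPM in scMC38. Every scMC38 library lay below every control, although the gap between the nearest libraries was small (log2 fold change -0.36, SE 0.16, adjusted p = 0.231). Ube2e3 was at 21.7, 24.8, 23.5 and 21.9 CPM in controls and 18.3, 22, 19.3 and 20.8 CPM in scMC38. Only scMC38 2 reached the range of the controls (log2 fold change -0.19, SE 0.08, adjusted p = 0.225), and without scMC38 1 and 3 the value was -0.08. Ube2e1, a MuRF1 partner, stood at -0.25 (adjusted p = 0.316) with controls from 44.6 to 67.7 CPM. Ube2d3 was the steadiest member in controls, from 329 to 332 CPM, and spread from 295 to 357 CPM in scMC38.

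The E2s of the endoplasmic reticulum, Ube2g1, Ube2g2, Ube2j1 and Ube2j2, help to send misfolded proteins to the proteasome. All 4 had positive log2 fold changes, from 0.07 to 0.25 with TMM and from 0.18 to 0.34 with total counts alone, and none passed the test under either scaling. Ube2g1 was at 112, 102, 117 and 120 CPM in controls and at 131, 144, 119 and 140 CPM in scMC38. Of the scMC38 libraries 3 lay above all controls, and scMC38 3 lay within their range. The log2 fold change was 0.25 (SE 0.09, adjusted p = 0.171), an estimate 18.5% higher with an interval from 2.91% to 36.5%. Leaving out scMC38 1 and 3 gave 0.35 (adjusted p = 0.150), and leaving out controls 1 and 2 gave 0.16 (adjusted p = 0.584). Ube2g2 ran from 72.1 to 80.7 CPM in controls and from 69.4 to 99.3 CPM in scMC38 (0.19, adjusted p = 0.366), and its value without scMC38 1 and 3 was 0.35 (adjusted p = 0.12). The remaining builders of degradative chains were Ube2k and Ube2r2, a close relative of Cdc34. They stood at -0.05 and -0.15 (adjusted p = 0.799 and 0.399).

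Ube2n had the smallest p of all members. It encodes the E2 that builds the chains used in NF-kB signalling and DNA damage tolerance, and acts in a dimer with Ube2v1 or Ube2v2, which lack the catalytic cysteine. Ube2n was at 45.7, 43.6, 47.2 and 45.3 CPM in controls and at 37.1, 37.1, 38.0 and 36.8 CPM in scMC38. Both groups were tight and did not overlap. The log2 fold change was -0.29 (SE 0.06, adjusted p = 0.0610), an estimate 18% lower with an interval from 25.2% to 10.1% lower, and ranked 209 by p among all tested genes. It was -0.28 without scMC38 1 and 3, where Ube2g2 and not Ube2n had the smallest p of the members. When any single library was left out it was between -0.31 and -0.27 (adjusted p from 0.0757 to 0.188). The adjusted p of Ube2n was 0.255 without controls 1 and 2, and 0.265 with the replicate numbers as a block. With total counts alone it was smaller, at -0.18 (SE 0.09, adjusted p = 0.264). The partners Ube2v1 (-0.10, adjusted p = 0.555) and Ube2v2 (-0.08, adjusted p = 0.638) had overlapping groups, and both turned slightly positive with total counts alone.

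Part of the Ube2n sequence also stands elsewhere in the genome. In GENCODE M21 every 31-base stretch of the transcript of the processed pseudogene Ube2n-ps1 occurs in Ube2n, where such stretches make up 11.2% of the transcript. Reads from these stretches could fit both genes, and how they were divided was not given in the labels used. Ube2n-ps1 held 574 to 711 counts per library and had a log2 fold change of -0.18 (adjusted p = 0.281). With both genes summed, Ube2n stood between 55.0 and 60.6 CPM in controls and between 47.1 and 48.7 CPM in scMC38 (log2 fold change -0.26, SE 0.06, adjusted p = 0.0749). The groups still did not overlap. A further 6 members shared at least 10% of these stretches with 1 other gene, and summing them changed no direction and made no call.

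Among the E2s for ubiquitin-like modifiers, Ube2l6 was high in the tumour group. Ube2l6 encodes the E2 for ISG15, an interferon-induced modifier. It was at 5.39, 7.12, 4.48 and 4.93 CPM in controls and at 13.6, 8.25, 15.7 and 7.96 CPM in scMC38. All scMC38 libraries lay above all controls, with scMC38 1 and 3 the highest. The fold change was 2.08 (log2 1.06, SE 0.25, adjusted p = 0.0840). Without scMC38 1 and 3 the log2 fold change was 0.59 (adjusted p = 0.170).

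The genes of the ISG15 relay, Ube2l6 included, did not pass the test. Isg15 itself was at 0.35 on the log2 scale (adjusted p = 0.637), its E1 gene Uba7 at 0.20 (adjusted p = 0.727) and its ligase gene Herc6 at -0.02 (adjusted p = 0.977). Isg15 (3.61 CPM) and Uba7 (6.76 CPM) were highest in scMC38 3, as Ube2l6 was, with the other scMC38 libraries under the highest control. Of 11 interferon-stimulated genes 0 were called and 0 had an unadjusted p under 0.05, and those with the smallest p were Mx1 (0.92, adjusted p = 0.278) and Oas1a (0.92, adjusted p = 0.283). Their summed level was 37.8 to 52.5 CPM in controls and 35.8 to 56.5 CPM in scMC38. Marker sums of other cell types followed Ube2l6 to differing degrees. The 9 macrophage markers summed to 421 and 578 CPM in scMC38 1 and 3, 267 and 130 CPM in scMC38 2 and 4, and 115 to 160 CPM in controls. The 9 neutrophil markers, none of them called, summed to 448, 18.2, 4097 and 37.4 CPM in scMC38 1 to 4 and to 5.06 to 10.6 CPM in controls, so that this sum, like Ube2l6, lay above all controls in every scMC38 library. The 10 red cell markers, 7 of 8 tested called higher, summed to 583 to 1158 CPM in controls and 1715 to 2934 CPM in scMC38. Other sums, like that of the macrophage markers, did not lie above all controls in every scMC38 library. B and plasma cell markers were at 141, 161, 152 and 68.4 CPM in scMC38 1 to 4 and 47.8 to 81.3 CPM in controls. T and NK cell markers in scMC38 2 and 4 (0.341 and 0.315 CPM) lay below all controls (0.502 to 0.609 CPM). Endothelial markers were at 191 to 316 CPM in scMC38 and 227 to 377 CPM in controls. The part of these cell types in the Ube2l6 result was not tested.

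Ube2f, the NEDD8 E2 that serves one cullin ligase branch, was at 51.7, 55.9, 51.5 and 48.4 CPM in controls and 40.1, 50.1, 37.8 and 45.5 CPM in scMC38. Only scMC38 2 reached the control range (log2 fold change -0.26, SE 0.10, adjusted p = 0.186), and without scMC38 1 and 3 the value was -0.10 (adjusted p = 0.597). Ube2m, the main NEDD8 E2, and Ube2z, which can carry FAT10, were at -0.04 and -0.03 (adjusted p = 0.855 and 0.851).

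**Figure D3:**
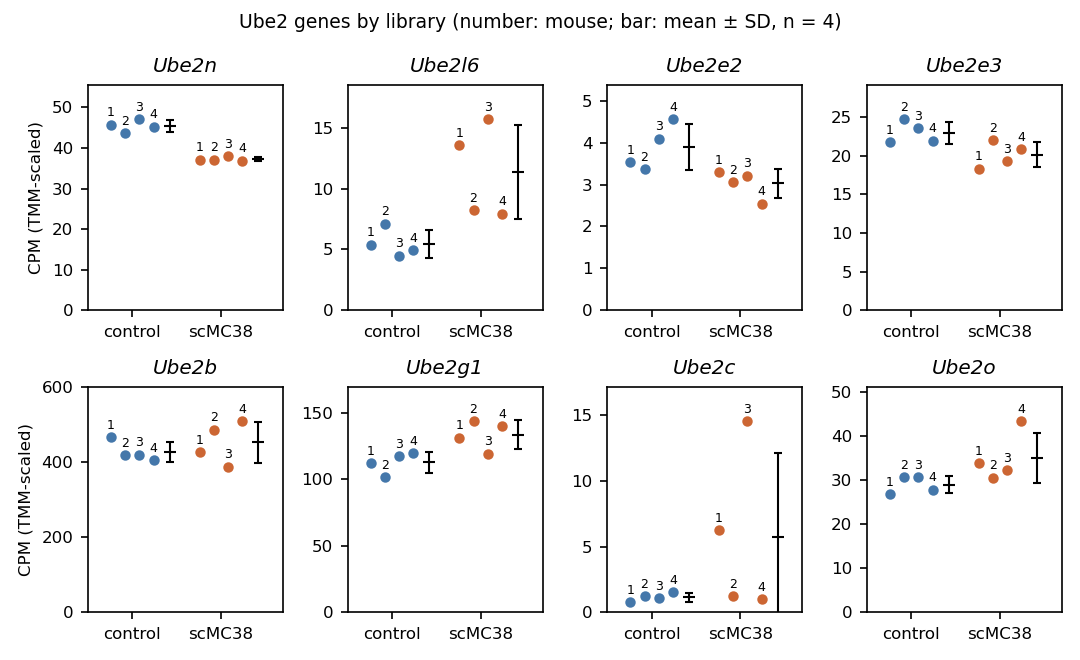
CPM of 8 Ube2 genes in each library (numbers give the mouse), with the mean ± SD beside each group (n = 4). Ube2n is tight and separate, Ube2l6 is higher in all 4 scMC38 libraries, and Ube2c is high in scMC38 1 and 3, at 6.25 and 14.5 CPM.

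Ube2c, the mitotic E2 of the anaphase-promoting complex, was high in scMC38 1 and 3 and in no other library. It was at 0.770, 1.24, 1.06 and 1.55 CPM in controls and at 6.25, 1.25, 14.5 and 0.985 CPM in scMC38. The libraries scMC38 2 and 4 lay within the control range. The log2 fold change was 2.33 (SE 0.81, adjusted p = 0.157). Leaving out scMC38 3 gave 1.29, and leaving out scMC38 1 and 3 together gave -0.02 (adjusted p = 0.977). Cell cycle genes had the same pattern: the 11 listed summed to 43.5 and 143 CPM in scMC38 1 and 3, to 2.48 and 1.87 CPM in scMC38 2 and 4, and to 1.22 to 3.64 CPM in controls. Mki67, a proliferation marker, reached 19.1 CPM in scMC38 1 and 49.1 CPM in scMC38 3, with all other libraries at or under 1.24 CPM. None of the 4 tested genes of that list was called, with Mki67 at 4.69 and Top2a, a topoisomerase of dividing cells, at 4.54 (adjusted p = 0.126 for both). Marrow and bone markers were high in the same 2 libraries, and their part in the Ube2c result was not tested.

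Ube2s, which extends the chains that Ube2c starts, and Ube2t, the E2 of the Fanconi DNA repair pathway, did not share that size of change. Ube2s was at 50.5, 46.2, 48.5 and 51.6 CPM in controls and 48.1, 51.0, 59.1 and 48.9 CPM in scMC38 (log2 fold change 0.07, adjusted p = 0.640), with scMC38 3 alone above the controls. Ube2t ran from 2.26 to 4.93 CPM in controls and 2.78 to 4.23 CPM in scMC38 (-0.05, adjusted p = 0.940).

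**Figure D4:**
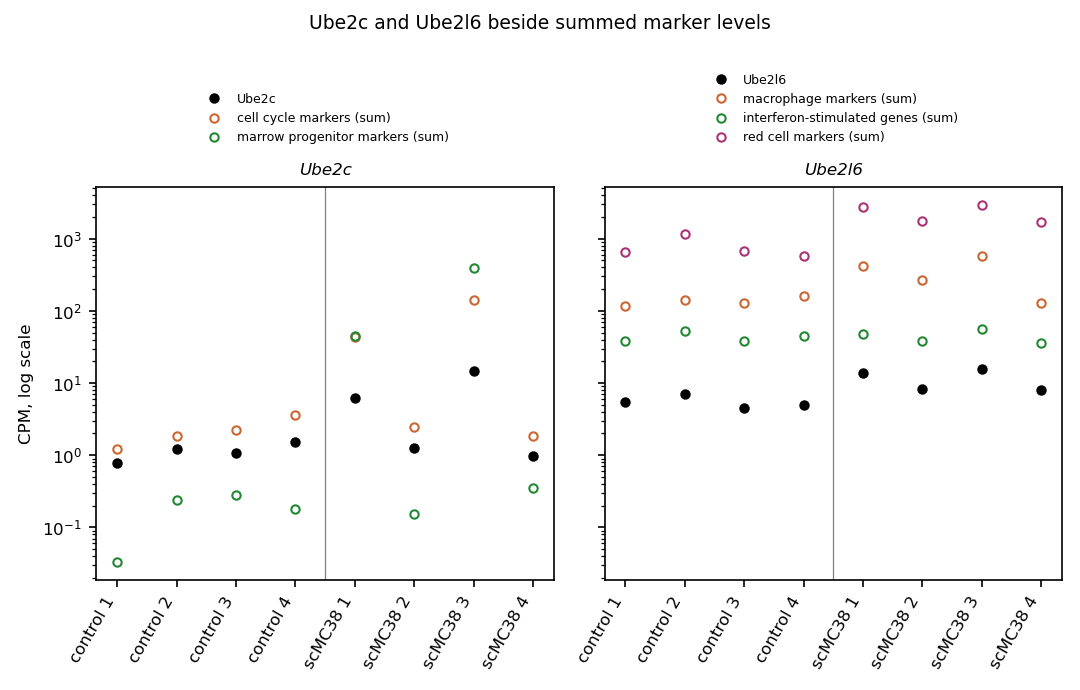
CPM in the 8 libraries on a log axis: Ube2c beside the summed cell cycle and marrow progenitor markers (left), and Ube2l6 beside summed macrophage, interferon-stimulated and red cell genes (right). Ube2c and both marker sums are high in scMC38 1 and 3, while the interferon-stimulated sum stays between 35.8 and 56.5 CPM.

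The promoters of these mitosis and repair E2s, and of Ube2l6 and Ube2n as the members with the smallest p, are shown for comparison. Each is the 250 bases before the annotated start, 5′ to 3′ on the gene's strand, from RefSeq (GRCm38.p6, an earlier build than that of the table). Capitals mark matches on either strand to CCAAT, the box bound by NF-Y, or to TTTGAA, the cell cycle homology region. The windows are chr2:164769679-164769928 (plus strand) for Ube2c, chr1:134962315-134962564 (plus) for Ube2t, chr7:4812341-4812590 (minus) for Ube2s, chr2:84798578-84798827 (plus) for Ube2l6 and chr10:95514912-95515161 (plus) for Ube2n.
Ube2c: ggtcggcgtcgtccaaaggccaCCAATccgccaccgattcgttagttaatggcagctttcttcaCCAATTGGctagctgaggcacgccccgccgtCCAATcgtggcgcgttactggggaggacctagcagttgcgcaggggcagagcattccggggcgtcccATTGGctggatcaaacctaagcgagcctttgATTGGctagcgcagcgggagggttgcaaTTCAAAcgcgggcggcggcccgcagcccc
Ube2t: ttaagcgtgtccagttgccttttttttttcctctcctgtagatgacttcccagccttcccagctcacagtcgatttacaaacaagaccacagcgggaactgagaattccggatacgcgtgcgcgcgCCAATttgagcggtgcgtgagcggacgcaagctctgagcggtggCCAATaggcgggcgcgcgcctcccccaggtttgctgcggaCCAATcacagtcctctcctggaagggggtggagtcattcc
Ube2s: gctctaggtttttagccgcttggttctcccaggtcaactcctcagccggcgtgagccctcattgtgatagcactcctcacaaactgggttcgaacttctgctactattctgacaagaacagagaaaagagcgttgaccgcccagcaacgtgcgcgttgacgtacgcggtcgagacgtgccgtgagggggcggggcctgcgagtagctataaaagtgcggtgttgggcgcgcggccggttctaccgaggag
Ube2l6: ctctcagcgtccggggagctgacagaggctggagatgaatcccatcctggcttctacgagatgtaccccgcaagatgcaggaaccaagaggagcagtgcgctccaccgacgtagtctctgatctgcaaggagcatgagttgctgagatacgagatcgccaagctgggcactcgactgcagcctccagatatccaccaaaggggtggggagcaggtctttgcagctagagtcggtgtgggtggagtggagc
Ube2n: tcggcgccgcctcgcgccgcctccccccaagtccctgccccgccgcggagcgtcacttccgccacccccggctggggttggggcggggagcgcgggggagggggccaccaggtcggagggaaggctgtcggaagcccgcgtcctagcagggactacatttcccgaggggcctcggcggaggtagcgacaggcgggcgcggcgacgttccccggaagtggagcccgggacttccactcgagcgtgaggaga

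The Ube2c window held 6 matches to CCAAT, a pair of which overlap, and 1 to TTTGAA. The Ube2t window held 3 matches to CCAAT, and the windows of Ube2s, Ube2l6 and Ube2n held none of either. Of 32851 promoter windows of this length, 33.8% held CCAAT and 16% held TTTGAA. Among the 25 members with a window, which had 36 windows, 6 held CCAAT and 3 held TTTGAA in at least 1 window. Members are counted by gene and the background by window, so the shares are not like for like. The pair was not particular to Ube2c: 1 window of Ube2f, a NEDD8 E2, held 3 matches to CCAAT and 1 to TTTGAA. The interferon response element (GAAA, any 2 bases, GAAA) stood in 2.98% of windows and in none of the 25 members with a window in the tables used, and the FoxO site GTAAACA in 3.17% of windows and in 1 member, Ube2h, in 1 of its windows. A match describes letters only.

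Of the remaining members, Ube2o, a large E2 that can also act as its own ligase and is abundant in maturing red cells, was at 26.8, 30.6, 30.6 and 27.8 CPM in controls and at 33.8, 30.5, 32.2 and 43.3 CPM in scMC38. The libraries scMC38 1, 3 and 4 lay above all controls and scMC38 4 was the highest (log2 fold change 0.27, SE 0.12, adjusted p = 0.222). Leaving out scMC38 4 gave 0.15, and leaving out scMC38 1 and 3 gave 0.37 (adjusted p = 0.237). The red cell markers that were higher in all scMC38 libraries were not highest in scMC38 4 (1715 CPM, the lowest of that group), and their part in the Ube2o values was not tested. Ube2h, also linked to red cell maturation, stood at -0.10 with TMM (adjusted p = 0.599) and at 0.00013 with total counts alone. Ube2l3, the E2 of the RBR ligases such as parkin and the ariadne proteins, was at 0.03 (adjusted p = 0.872), with an interval from 10.9% lower to 17.0% higher. Ube2q1 and Ube2q2 were at 0.11 and 0.04, and the scarce Ube2ql1 at -0.64 (SE 0.47, adjusted p = 0.455).

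Ube2srt was the member too scarce to be tested. It had 0 counts in all 4 controls, which allows up to 3 counts, or 0.0483 to 0.0594 CPM, per library for counting error only. The scMC38 libraries held 0, 6, 4 and 3 counts. GENCODE M21 gave no protein-coding transcript under this symbol, so whether these counts come from an E2 enzyme or from sequence shared with another gene was not tested.

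Levels within the tumour group were compared between scMC38 2 and 4 and scMC38 1 and 3, pairs formed from marker levels of these same data. In 15 of the 32 tested members, among them Ube2b, Ube2d3, Ube2g1, Ube2g2, Ube2l3 and Ube2r2, both scMC38 2 and 4 lay above both scMC38 1 and 3, which was 46.9% of members, against 24.4% of all tested genes. In 5 members, Ube2c, Ube2e2, Ube2l6, Ube2n and Ube2q1, both scMC38 1 and 3 lay above both scMC38 2 and 4 (15.6% of members, against 25.8% of all tested genes). The margin between scMC38 1 and 2 was narrow for Ube2n (37.11 against 37.08 CPM) and Ube2q1 (19.24 against 19.13 CPM). All members were read from the same 4 libraries, so these counts are not separate observations. The sum over all members was 2358 and 2247 CPM in scMC38 1 and 3, 2618 and 2605 CPM in scMC38 2 and 4, and 2421 to 2500 CPM in controls. Without scMC38 1 and 3, 19 of 32 members were positive (median 0.02), and Ube2g2 had the smallest p. The marrow and bone markers divide the same libraries, and their part in these differences was not tested.

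At the ligase step of the relay, Fbxo32 and Trim63 rose. Fbxo32 was at 501, 293, 411 and 473 CPM in controls and at 906, 1489, 1384 and 2013 CPM in scMC38 (log2 fold change 1.79, SE 0.26, adjusted p = 0.0273), and Trim63 at 281, 262, 442 and 262 CPM against 716, 766, 872 and 1303 CPM (1.55, SE 0.25, adjusted p = 0.0322). For both, the scMC38 libraries lay above all controls. They were the calls among 25 partner ligases, whose median was 0.11. Fbxo32 lost its call without control 1, 2 or 3 or scMC38 2 (adjusted p up to 0.0963), and Trim63 kept its call only without control 3 among the 8 fits (adjusted p up to 0.115 otherwise). With both scMC38 1 and 3 left out, Fbxo32 stood at 2.08 (adjusted p = 0.0359) and Trim63 at 1.75 (adjusted p = 0.0597). The E2s reported to bind MuRF1 were at -0.25 (Ube2e1), 0.25 (Ube2g1), 0.08 (Ube2j1) and 0.03 (Ube2l3) on the log2 scale, with upper interval bounds of 3.89%, 36.5%, 16.5% and 17.0% above control, against lower bounds of 98.9% for Trim63 and 129% for Fbxo32.

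Among 11 genes of ubiquitin and its relatives, the polyubiquitin gene Ubb was at 814, 764, 802 and 845 CPM in controls and at 1136, 1123, 1079 and 1207 CPM in scMC38. The groups did not overlap, and the gene fell just short of the threshold (log2 fold change 0.50, SE 0.10, adjusted p = 0.0510). It passed with limma-voom (adjusted p = 0.0486), DESeq2 (9.2e-13), total counts alone (0.0308) and the filter of at least 1 CPM (0.0427), and in none of the 8 fits that leave out 1 library (0.0601 to 0.175). Of 10 E1 genes none was called (median 0.08), with Atg7 at 0.24 and Uba2, an E1 subunit for SUMO, at 0.21 (adjusted p = 0.219 and 0.251). Of 8 tested genes with an E2 fold but another name none was called either (median -0.04), with Aktip at -0.28 and Ufc1, the E2 for UFM1, at -0.16 (adjusted p = 0.147 and 0.209). Cdc34, the E2 of the cullin ligases, was at 0.01 (adjusted p = 0.964).

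**Figure D5:**
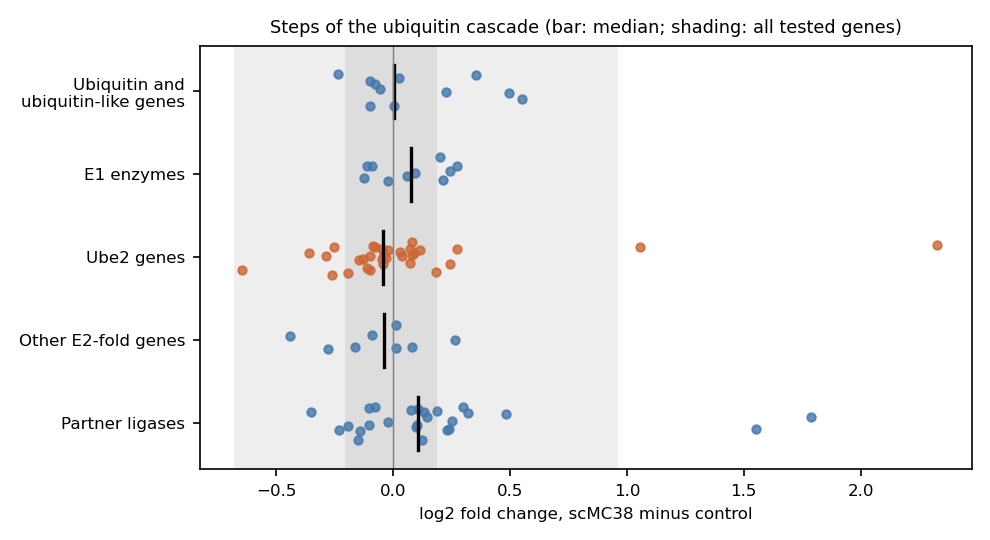
Log2 fold change (scMC38 minus control) of each tested gene at 5 steps of the ubiquitin relay, with a bar at each median and shading for the range of all tested genes (light: percentiles 5 to 95, dark: 25 to 75). Trim63 and Fbxo32 are the ligases at 1.55 and 1.79, and most Ube2 genes lie within the shaded ranges.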

How the data were processed

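The authors deposited estimated counts per gene, 1 column per library, not scaled for depth or gene length. Per the submitters' processing notes, fastp 1.0.1, FastQC 0.12.1, MultiQC 1.30, Salmon 1.10.3, R 4.4.3 and build GRCm39 were used. The notes name no role for any of them, and the annotation release, gene summing and strand handling were not given in the labels used here. Values of near-identical or overlapping genes are therefore uncertain. Per the labels' protocols, RNA was isolated with a column kit and libraries were made with an mRNA-seq kit. Groups came from the sample titles and columns from the library names in the sample descriptions.

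Rows without a symbol (144 of 35667, at most 0.00403% of a library's counts) were left out, 26 repeated symbols were summed, and values were rounded. All genes were tested together with edgeR 4.0.16 in R 4.3.3: filterByExpr (minimum count 10, minimum total 15), TMM, robust quasi-likelihood F test without covariates, Benjamini-Hochberg adjustment over 14112 genes, threshold 0.05. Unless another tool is named, adjusted p-values come from this test. Standard errors and 95% intervals are those implied by the F statistic. The 4 libraries of a group are separate mice. Within groups all library pairs differed beyond counting noise (chi-square per degree of freedom from 63.2 to 480). The common biological coefficient of variation over the tested genes was 27.3%, a measure of the variation among mice beyond counting noise. The code was tested on simulated counts.

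The members and gene lists were chosen with earlier results of these data known. Full values go to called members, members whose groups do not overlap (up to 12 by smallest p), Ube2b, Ube2g1 and the member with the smallest p of each role group. Of other lists, called genes (up to 4) or the 2 with the smallest p are named, with Fbxo32 and Trim63 in any case. Values of 1 member and 1 gene of the other lists are not reported here, though both are in the counts and medians. Isg15, Uba7, Herc6, Cdc34 and the members named beyond this rule were chosen after their values were seen. DESeq2 1.42.0, limma-voom 3.58.1, other scalings and filters, a replicate block and left-out libraries were alternatives.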

Additional observations from a re-analysis of the deposited data

Results flagged for a closer look

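In 7 of 64 groups of 4 libraries examined, 1 library lay far from the other 3. The rule used gives about 1 in 20 by chance for independent groups. These groups were read from the same 8 libraries, so they are not separate observations. The share flagged over all tested genes was not computed. In 5 of the 7 the library was scMC38 3, which also held the highest marrow and bone marker levels. There Ube2d1 was at 155 CPM with the other scMC38 libraries from 212 to 214, and Ube2e1 at 40.3 CPM with the others from 48.0 to 49.3. In the same library Ube2q1 was at 24.9 CPM (others 18.8 to 19.2), Ube2z at 33.6 CPM (others 30.1 to 30.6) and Ube2ql1 at 1.11 CPM (others 0.421 to 0.511). Ube2q1 was also high in control 2, at 21.5 CPM (other controls 17.9 to 18.4). Ube2w was at 9.95 CPM in scMC38 2 (others 9.16 to 9.28).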

How the results depend on the processing

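The E2 counts of 0 higher and 0 lower members held in all alternatives run but DESeq2, which called 2 higher and 1 lower (Ube2c, adjusted p = 0.0188, Ube2l6, 0.00298, and Ube2n, 1.0e-05) and, over all genes, 829 higher and 597 lower against 104 and 66 by edgeR. Over all genes the calls numbered 216 higher with total counts alone (80.9% of calls higher against 61.2%), 69 higher with no low-count filter, 25 higher and 39 lower without scMC38 1 and 3 together, and 0 and 0 without control 1 and 2 together, where 1605 genes had an unadjusted p under 0.05. With 1 library left out, all-gene calls ran from 1 to 59 higher and from 1 to 52 lower, with the fewest without control 1, so the 0 calls among E2 genes in those fits stand beside few calls anywhere. The members' median log2 fold change was 0.07 with total counts alone. The cause of these differences between settings was not tested.

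The replicate numbers of the titles did not pair the libraries: deviations of same-numbered libraries correlated between -0.28 and -0.01, and none correlated best with its own number. With the replicate block, 0 members were called, 0 genes were higher and 1 was lower over all genes, and Fbxo32 and Trim63 had adjusted p = 0.176 and 0.173.

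Of the member values under the alternatives, 509 kept their direction and their side of the threshold, 38 changed sign (10 with total counts alone and 8 without scMC38 1 and 3) and 3 became calls, those of DESeq2. The pairs summed for shared sequence were chosen after seeing the data. Ube2ql1, the scarcest tested member, held 369 counts over the 8 libraries and varied by 56.1% (CV) among controls. For this gene variation among mice limits the result more than depth does. Other members varied far less, such as Ube2n in scMC38 (1.33%) and Ube2d3 in controls (0.485%). For spreads that small, variation among mice was not separated from counting error. Depth limits the untested Ube2srt.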
